A study of Homo sapiens with 12 samples.

Results

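The genes described here carry glucose into the cell and turn it into lactate. They were chosen by name as 10 genes, the glucose transporter SLC2A1 and the glycolytic enzymes HK1, HK2, GPI, ALDOA, TPI1, PGK1, ENO1, PKLR and LDHA, out of 23153 genes shared by 3 tables of expression values and 11075 genes that were abundant enough to test. The choice was made with earlier results of these data known. All 10 genes passed that filter, an average of 1 FPKM or more over the libraries. FPKM, a fragment count scaled to transcript length and library size, is the authors' unit and is corrected for gene length, so levels of different genes may be compared within a library. Messenger RNA came from K562, a human leukemia cell line with erythroid features, in 3 experiments that asked how cells respond to a toxic load of the saturated fatty acid palmitate.

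Experiment 1 compared wild-type (WT) cells left untreated with WT cells on palmitate and on palmitoleate, a monounsaturated fatty acid as long as palmitate, whose dose alone is not given. Experiment 2 had untreated WT, WT with palmitate, WT with palmitate and palmitoleate together, and cells with a knockout of GPAT4 (GPAT4ko), an enzyme of the first step of glycerolipid synthesis, given palmitate. Experiment 3 paired WT with a knockdown (RNF213kd) of the ubiquitin ligase RNF213, both without and with palmitate. Palmitate was used at 0.2 mM, for 20 h by the sample labels and for 16 h by legends in the files of experiments 2 and 3. The RNA of 3 biological replicates was pooled for each library, so every condition had 1 library in an experiment, WT untreated and WT palmitate had 3 libraries each, and all other conditions had 1. Whether the knockout line is 1 clone is not given in the sources used here, and the untreated GPAT4ko library was not analysed here.

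Glycolysis runs in the cytosol. Hexokinases trap glucose as glucose 6-phosphate, phosphofructokinase commits it to breakdown, aldolase and triose phosphate isomerase yield the triose phosphates, and the steps from glyceraldehyde 3-phosphate to pyruvate return ATP. Lactate dehydrogenase then reduces pyruvate and restores NAD+. Red cells rely on this pathway for ATP, and they use the R form of pyruvate kinase, which the PKLR gene makes from an upstream erythroid start, while the liver makes the L form from a downstream start and most proliferating cells use PKM.

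The test below called PKLR, LDHA and TPI1 lower with palmitate in WT cells, but not ENO1, whose mean log2 ratio was -0.16. The sequences before 4 transcription starts are shown, 1 for each of these genes. Each is the run of 250 bases before the first RefSeq start listed for the gene (build GRCh38.p14), written 5′ to 3′ on the gene's strand. Capitals mark matches on either strand to the hypoxia-inducible factor cores ACGTG and GCGTG, the E box CACGTG, which holds the first core on each strand, and the GATA motif AGATAA. PKLR lies on the minus strand at chr1:155301439-155301688, LDHA on the plus strand at chr11:18394313-18394562, TPI1 on the plus strand at chr12:6867281-6867530 and ENO1 on the minus strand at chr1:8878687-8878936.
PKLR: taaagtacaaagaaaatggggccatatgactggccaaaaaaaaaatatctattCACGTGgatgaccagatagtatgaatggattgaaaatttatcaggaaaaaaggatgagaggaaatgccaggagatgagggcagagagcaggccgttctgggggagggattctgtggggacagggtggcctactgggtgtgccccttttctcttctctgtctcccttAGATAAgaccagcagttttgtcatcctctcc
LDHA: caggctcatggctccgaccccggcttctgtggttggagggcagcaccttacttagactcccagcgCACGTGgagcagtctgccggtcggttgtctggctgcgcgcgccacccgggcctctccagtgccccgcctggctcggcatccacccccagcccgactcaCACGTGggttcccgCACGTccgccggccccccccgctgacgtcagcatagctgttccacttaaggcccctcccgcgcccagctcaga
TPI1: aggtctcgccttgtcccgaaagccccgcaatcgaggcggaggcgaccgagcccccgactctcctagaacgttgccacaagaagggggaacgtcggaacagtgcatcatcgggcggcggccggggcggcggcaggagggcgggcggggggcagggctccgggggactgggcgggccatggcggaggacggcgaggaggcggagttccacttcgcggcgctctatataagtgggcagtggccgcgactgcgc
ENO1: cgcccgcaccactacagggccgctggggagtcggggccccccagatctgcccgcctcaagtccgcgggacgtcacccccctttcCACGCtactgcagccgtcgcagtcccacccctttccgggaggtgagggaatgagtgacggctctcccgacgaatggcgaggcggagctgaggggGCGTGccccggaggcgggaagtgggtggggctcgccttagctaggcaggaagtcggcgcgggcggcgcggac
The PKLR run held 1 E box and 1 GATA motif, the LDHA run held 2 E boxes and 5 ACGTG matches including those inside them, the ENO1 run held 2 GCGTG matches, and the TPI1 run held none of the capitalised motifs. Over all 35116 RefSeq windows of 300 bases (250 before and 50 after a start), 21.4% held ACGTG, 36.5% GCGTG, 7.26% CACGTG, 10.3% AGATAA, 56.1% the KLF1 motif CCNCNCCCN and 3.62% the amino acid response element TGATGNAA, on either strand. The 10 genes had 22 such windows, some of which overlap, and 10 of them held ACGTG, 10 GCGTG, 4 CACGTG, 3 AGATAA, 17 CCNCNCCCN and 2 TGATGNAA. AGATAA was found in windows of PKLR and HK1, and CACGTG in windows of PKLR, HK2, LDHA and ALDOA. A match describes these letters and is not evidence of binding.

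By the GENCODE annotation of GRCh37, the assembly that the authors' hg19 denotes, the 10 genes lie on 8 chromosomes. PKLR spans 155259084 to 155271229 of chromosome 1 on the minus strand and overlaps HCN3 on the other strand. The locus that Cuffdiff, the authors' quantification tool, gave it is wider and starts at 155247374. LDHA spans 18416107 to 18429972 of chromosome 11, and TPI1 spans 6976283 to 6980112 of chromosome 12, where it overlaps SPSB2 on the other strand. PGK1, on chromosome X, holds PGAM4 on its other strand and overlaps ATP7A on its own strand. GPI and ALDOA each overlap a coding gene without a symbol on their own strand. The annotation names 6 pseudogenes after LDHA, 4 each after TPI1 and ENO1, 2 each after PGK1 and ALDOA, and 1 after HK2. Reads shared with such copies could be split between genes, so the levels of these genes carry that uncertainty.

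The libraries summed to 612355 to 821188 FPKM over all genes. Read counts are unknown, so precision rests on the spread between experiments. GPAT4 stood at 8.77 FPKM in the GPAT4ko palmitate library against 20.0 FPKM in WT palmitate of that experiment, and RNF213 stood at 1.39 FPKM in untreated RNF213kd cells against 1.96 FPKM in untreated WT, and at 1.54 against 3.08 FPKM with palmitate. The 10 fixed erythroid markers of K562 summed to 9820 to 17800 FPKM in untreated WT and to 5080 to 6150 FPKM in WT palmitate. Of them, 4 were called lower (HBG2, HBZ, LMO2 and EPOR) and 0 higher, against 3.84% and 6.59% of tested genes. Their median log2 ratio was -1.20. The count lower was 7 when a trend of the ratios with transcript GC content was removed. It was 8 when small RNA and SNAR genes, short noncoding RNAs, stayed out of the fit. Those fits called 12.5% and 11.1% of tested genes lower. In WT palmitate the medians of the markers and of the 10 genes were both below 0. For palmitoleate against untreated WT, the median log2 ratios were 0.32 for the markers and -0.39 for the 10 genes. For both acids against palmitate alone they were 1.45 and 0.14. The part of the marker shift in the results below was not tested. In pooled bulk RNA, fewer cells of a kind and less RNA per cell cannot be told apart. Markers of other cells were near 0 apart from CD3D, LYZ and EPCAM: the summed level over the libraries was 0.166 to 0.85 FPKM for B cells, 0.344 to 0.921 for endothelium, 0.203 to 3.0 for fibroblasts, 12 to 39.6 for T cells, 19.9 to 57.8 for monocytes and 13.6 to 62.3 for epithelium, with MS4A1, KRT5 and CDH5 at 0 in every library.

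In untreated WT cells ENO1 was the most abundant of the 10 genes, at 1290 ± 418 FPKM (SD, n = 3), followed by ALDOA at 748 ± 312 and LDHA at 718 ± 35.9 FPKM. TPI1 (437 ± 230 FPKM), PGK1 (229 ± 45.5 FPKM) and HK1 (211 ± 67.1 FPKM) formed a middle range, and GPI (88.5 ± 35.1 FPKM), PKLR (41.5 ± 23.1 FPKM), SLC2A1 (39.6 ± 21.1 FPKM) and HK2 (16.1 ± 1.07 FPKM) a low one. Neighbours in that order differ by less than their SDs for ALDOA and LDHA, PGK1 and HK1, and PKLR and SLC2A1. Most of the SD is between experiments, whose tables the authors normalised separately, so every ratio below is formed within 1 experiment. The 10 genes together took 0.471 to 0.698% of the summed FPKM in untreated WT and 0.269 to 0.504% in WT palmitate, and the palmitate share was lower in 3 of 3 experiments.

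**Figure D1:**
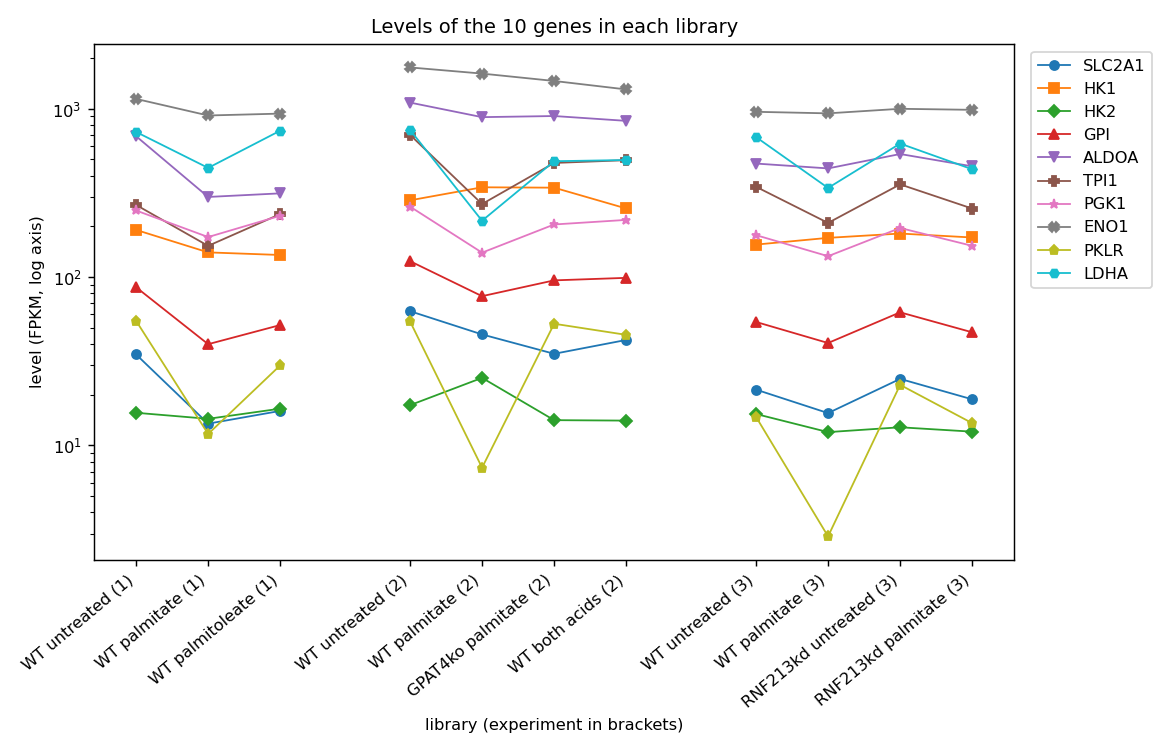
Level of each of the 10 genes (FPKM, log axis) in the 11 libraries, grouped by experiment, with 1 point per library and lines joining libraries of 1 experiment. PKLR drops in each WT palmitate library, to between 2.88 and 11.7 FPKM, while ENO1 stays between 910 and 1756 FPKM.

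Palmitate in WT cells lowered 3 of the 10 genes, PKLR, LDHA and TPI1, and raised 0. These calls come from limma on the 3 ratios of log2(FPKM + 1) within experiments, with Benjamini-Hochberg adjustment over all 11075 genes and a threshold of 0.05, by which 3.84% of tested genes were called lower and 6.59% higher. At an unadjusted p under 0.05, 6 of the 10 genes were lower and 0 higher, against 17.2% and 15.4% of tested genes. In all 3 experiments 8 of the 10 genes were lower, against 29.6% of tested genes. The median log2 ratio of the 10 genes was -0.67, and that of all tested genes was -0.06. Because the 10 genes were chosen with earlier results of these data known, their counts are not an independent test against these shares.

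PKLR, the last ATP-yielding step in red cells, stood at 55.0, 54.6 and 14.8 FPKM in untreated WT of experiments 1, 2 and 3 and at 11.7, 7.38 and 2.88 FPKM in WT palmitate. The groups did not overlap, although untreated WT of experiment 3 was much lower than that of the others. Group overlap, here and below, compares levels of experiments that were normalised separately. Only the ratios within experiments were tested. The mean log2 ratio was -2.30 ± 0.23 (SE, n = 3, limma adjusted p = 0.0132), or 20.3% of untreated on the scale of FPKM + 1. PKLR was chosen with this fall already known.

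LDHA, the lactate dehydrogenase subunit that prevails in glycolytic tissue, stood at 727, 748 and 678 FPKM in untreated WT and at 445, 216 and 338 FPKM with palmitate. The untreated libraries lay close together and above every palmitate library. The mean log2 ratio was -1.17 ± 0.25 (SE, n = 3, limma adjusted p = 0.0451), or 44.6% of untreated.

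TPI1, which interconverts the triose phosphates, stood at 268, 699 and 344 FPKM in untreated WT and at 153, 271 and 209.6 FPKM with palmitate. The groups touch, because the highest palmitate library lies just above the lowest untreated one, but each palmitate library was below its own control. The mean log2 ratio was -0.96 ± 0.21 (SE, n = 3, limma adjusted p = 0.0453), or 51.4% of untreated. With the GC trend removed, the mean for TPI1 was -0.76 (adjusted p = 0.0642), with ratios of -0.20, -1.30 and -0.78.

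Leaving out experiment 1 or 3 ended the calls of PKLR, LDHA and TPI1, and leaving out experiment 2 ended those of LDHA and TPI1. Without experiment 1 the mean log2 ratios were -2.38, -1.40 and -1.04, with limma adjusted p of 0.0525, 0.0629 and 0.0663. Without experiment 3 they were -2.44, -1.25 and -1.08, with adjusted p of 0.131, 0.197 and 0.186. The means were thus at least as large as with all 3 experiments. Without experiment 2 they were -2.08, -0.86 and -0.76, with adjusted p of 9.82e-06, 0.078 and 0.159. The smallest limma adjusted p over all genes in that fit was 2.78e-138, so its adjusted p-values are not to be relied on. When the pairing by experiment was ignored, or when no filter on low values was used, limma called 0 of the 10 genes, with 3 and 6 of them at an unadjusted p under 0.05.

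Of the other members, 5 were lower in every experiment without passing the test. SLC2A1, the transporter GLUT1, stood at 34.7, 62.7 and 21.5 FPKM untreated and at 13.5, 45.6 and 15.6 FPKM with palmitate, and its log2 ratios were -1.30, -0.45 and -0.44. The largest difference lay in experiment 1, and the adjusted p over the mean of -0.73 ± 0.25 (SE, n = 3, limma) was 0.11. GPI, which makes fructose 6-phosphate, stood at 87.0, 124 and 54.1 FPKM untreated and at 39.9, 77.0 and 40.6 FPKM with palmitate. Its mean log2 ratio was -0.73 ± 0.22 (SE, n = 3, limma adjusted p = 0.0818), and its groups overlapped. PGK1, the first ATP-yielding step, stood at 248, 262 and 177 FPKM untreated and at 173, 139.6 and 133 FPKM with palmitate. Its groups did not overlap, and its mean log2 ratio was -0.61 ± 0.20 (SE, n = 3, limma adjusted p = 0.0953). ALDOA, the aldolase of most tissues, had log2 ratios of -1.20, -0.29 and -0.10 (adjusted p = 0.219), so most of its difference came from experiment 1. ENO1, which makes phosphoenolpyruvate, had ratios of -0.33, -0.12 and -0.03 (adjusted p = 0.546).

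The hexokinases showed no common direction. HK1, the main hexokinase of red cells, stood at 190.5, 285 and 156 FPKM untreated and at 140.1, 341 and 171 FPKM with palmitate. HK2, the inducible form, stood at 15.6, 17.3 and 15.4 FPKM untreated and at 14.4, 25.2 and 12 FPKM with palmitate, highest in experiment 2. Mean log2 ratios were -0.02 (95% limma interval -0.55 to 0.51) for HK1 and 0.02 (-0.57 to 0.62) for HK2, and the small mean of HK1 is 0.11 with the GC trend removed.

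**Figure D2:**
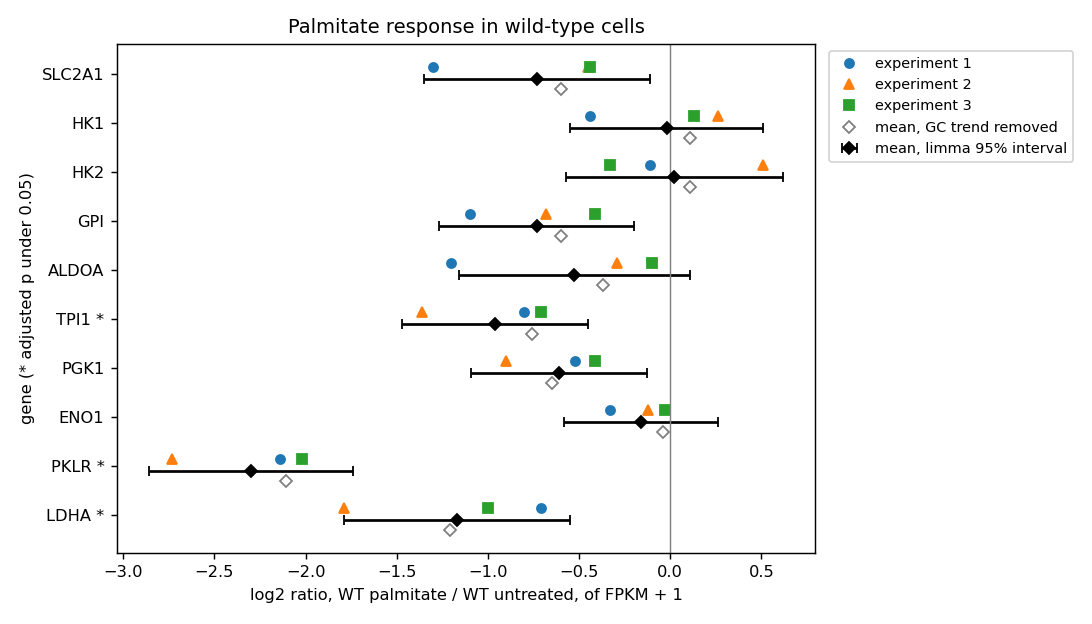
Log2 ratio of WT palmitate to WT untreated (FPKM + 1) for the 10 genes: coloured points are the 3 experiments, black diamonds the mean with its 95% limma interval, open diamonds the mean with the GC trend removed. PKLR at -2.30 lies apart from the other genes, and the intervals of HK1, HK2, ALDOA and ENO1 include 0.

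GC content moved with the ratios of experiment 1, across genes: the Spearman correlation of the palmitate ratio with transcript GC was -0.63 there, -0.02 in experiment 2 and 0.15 in experiment 3, over 9637 genes with a GC value. Of the 10 genes, 8 lie above the median GC of 47.6%, at 50.5 to 57.3%, and LDHA (41.8%) and PGK1 (42.8%) lie below it. With that trend removed from each library, limma called 12.5% of these genes lower and 15.3% higher, and 5 of the 10 genes lower: PKLR at -2.11 (limma adjusted p = 0.0106), LDHA at -1.21 (0.0212), GPI at -0.60 (0.0342), PGK1 at -0.65 (0.0418) and SLC2A1 at -0.60 (0.0474). In the fit without small RNA and SNAR genes, 4 of the 10 were called lower, where 11.1% of tested genes were called lower and 11.3% higher.

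Where a step has another isozyme, the share of each was read within a library. PKLR made up 24.8, 19.1 and 8.36% of PKLR plus PKM (PKM2 in the files) in untreated WT and 10.7, 1.89 and 1.40% with palmitate, lower in 3 of 3 experiments. The mean difference was -12.8 percentage points (exact two-sided paired permutation p = 0.25, the smallest that 3 pairs allow). PKM itself had log2 ratios of -0.76, 0.72 and 0.33 in experiments 1, 2 and 3, with a mean of 0.10 (limma adjusted p = 0.852). SLC2A1 made up 42.9, 61.5 and 33.7% of SLC2A1 plus SLC2A3 untreated and 14.2, 36.0 and 19.2% with palmitate, a mean difference of -22.9 percentage points (exact p = 0.25). SLC2A3, a high-affinity glucose transporter, was at 46.1, 39.2 and 42.2 FPKM untreated and at 81.4, 81.0 and 65.6 FPKM with palmitate, and its mean log2 ratio of 0.82 had an adjusted p of 0.053. SLC2A3 is nearly identical to SLC2A14 over much of its length, so reads could be split between them.

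LDHA made up 51.5, 47.2 and 44.2% of LDHA plus LDHB untreated and 39.8, 41.3 and 42.2% with palmitate (mean difference -6.55 percentage points, exact p = 0.25). LDHB, the subunit that prevails in oxidative tissue, stood at 685, 837 and 856 FPKM untreated and at 672, 307 and 464 FPKM with palmitate, so in experiments 2 and 3 it was lower along with LDHA. HK2 made up 7.43 ± 1.63% of HK1 plus HK2 untreated and 7.59 ± 1.51% with palmitate (SD, n = 3), higher in 2 of 3 experiments (exact p = 1.0).

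**Figure D3:**
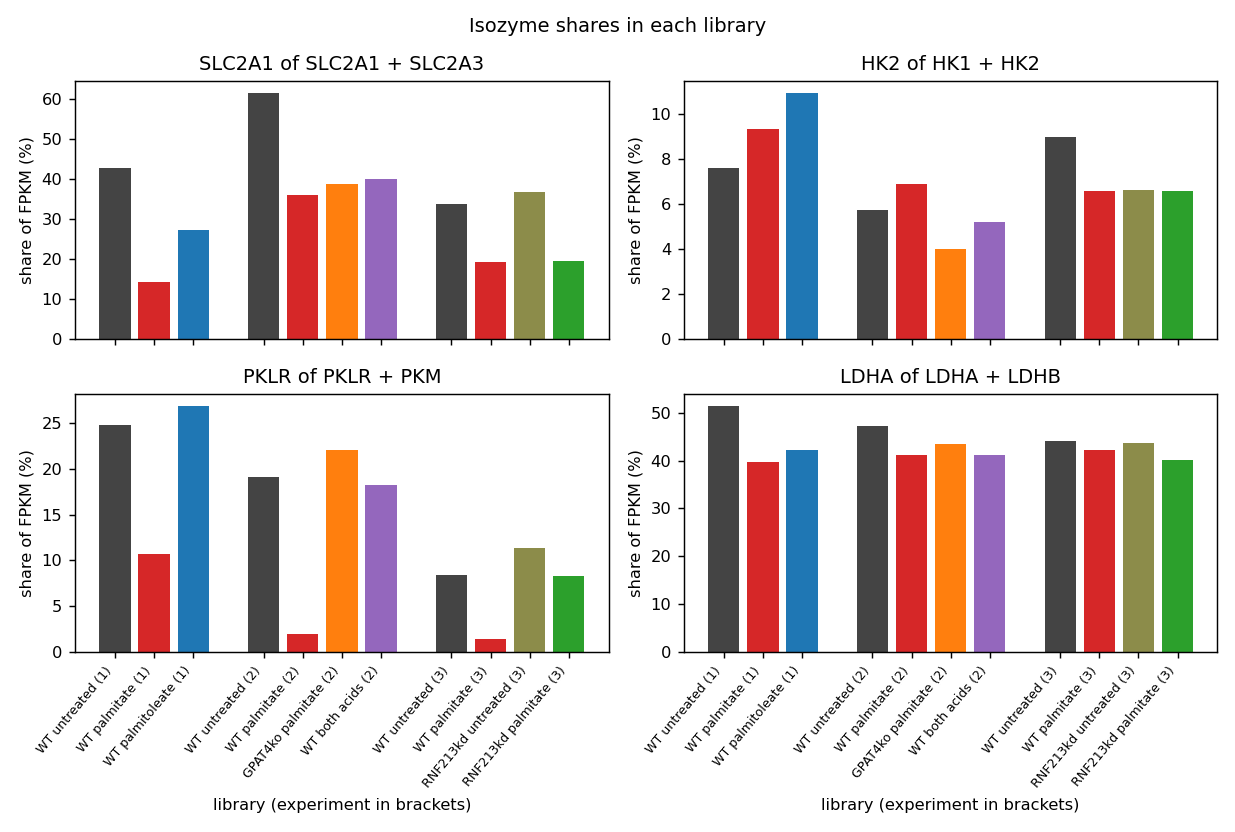
Share (%) of SLC2A1, HK2, PKLR and LDHA in the summed FPKM of their isozyme pair, 1 bar per library, grouped by experiment. The PKLR share is between 1.40 and 10.7% in WT palmitate and between 8.36 and 26.9% in every other library except RNF213kd with palmitate, at 8.23%.

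Palmitoleate alone gave a different set of values in experiment 1. Against untreated WT, 2 of the 10 genes were at least 2-fold lower, SLC2A1 at a log2 ratio of -1.07 and ALDOA at -1.13, where 7.21% of tested genes were at least 2-fold apart. With the GC trend removed (correlation -0.76 for this ratio) the values were -0.74 and -0.75, and 0 of the 10 genes were past 2-fold. LDHA, at 739.8 FPKM, and PGK1, at 231 FPKM, were close to untreated WT, with ratios of 0.02 and -0.10. PKLR stood at 29.9 FPKM, between untreated and palmitate, and its ratio to palmitate was 1.28 (95% interval 0.31 to 2.26, adjusted p = 0.761), the only one of the 10 past 2-fold against a background of 5.91%. These lone libraries have no replicates, and their intervals and adjusted p-values assume that they vary as the WT ratios do between experiments.

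With palmitoleate added to palmitate, in experiment 2, PKLR stood at 45.4 FPKM and LDHA at 495 FPKM, against 7.38 and 216 FPKM with palmitate alone. The log2 ratios to palmitate alone were 2.47 (95% interval 1.49 to 3.44, adjusted p = 0.175) and 1.19 (0.12 to 2.27, adjusted p = 0.25), and these 2 of 10 genes were past 2-fold, as were 19.4% of tested genes. TPI1 followed with 494 against 271 FPKM and a ratio of 0.86 (-0.03 to 1.75). In all, 5 of the 10 genes were higher than with palmitate alone and 5 lower, the latter with ratios of -0.07 for ALDOA, -0.11 for SLC2A1, -0.31 for ENO1, -0.42 for HK1 and -0.80 for HK2. In the fit without small RNA and SNAR genes, the adjusted p of PKLR was 0.0088.

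Against untreated WT, all 10 genes were lower with both acids, by log2 ratios between -0.59 for LDHA and -0.16 for HK1, and 0 were past 2-fold, where 1.70% of tested genes were. The intervals of all 10 ratios include 0, and the median of all tested genes was -0.02. PKLR stood at 45.4 FPKM here against 54.6 FPKM untreated, a ratio of -0.26 (95% interval -1.24 to 0.71).

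In GPAT4ko cells given palmitate, also in experiment 2, PKLR stood at 52.8 FPKM and LDHA at 487 FPKM, and their log2 ratios to WT palmitate were 2.68 (95% interval 1.71 to 3.66, adjusted p = 0.154) and 1.17 (0.09 to 2.25, adjusted p = 0.366), the 2 of 10 genes past 2-fold against a background of 15.1%. Without small RNA and SNAR genes the adjusted p of PKLR was 0.00926. TPI1 was at 476 FPKM (ratio 0.81) and PGK1 at 205 FPKM (ratio 0.55), while HK2, at 14.1 FPKM, had a ratio of -0.79. Relative to untreated WT the PKLR ratio of the GPAT4ko palmitate library was -0.05 (-1.02 to 0.93). The comparisons of both acids and of GPAT4ko use the same WT palmitate library, so their similarity is not independent. SLC2A1 was low in all 3 fatty acid libraries of this experiment, at 45.6, 42.3 and 35.0 FPKM against 62.7 FPKM untreated.

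In untreated cells, the RNF213 knockdown left the 10 genes within 2-fold of WT. The log2 ratios ran from -0.24 for HK2 to 0.60 for PKLR (22.9 against 14.8 FPKM), and 0 of the 10 were past 2-fold, as were 0.84% of tested genes. The ratios of this pair of libraries rose with GC content across genes (Spearman 0.63), and with the trend removed the PKLR ratio was 0.38.

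Within the knockdown, palmitate left all 10 genes lower, with ratios from -0.71 for PKLR to -0.02 for ENO1, and 0 past 2-fold, where 3.45% of tested genes were. All 10 intervals include 0, and with the GC trend removed ENO1 was at 0.05 and 9 of the 10 genes were lower. PKLR went from 22.9 to 13.6 FPKM and LDHA from 620.1 to 436 FPKM. In WT of the same experiment they went from 14.8 to 2.88 and from 678 to 338 FPKM. The difference between the palmitate responses of knockdown and WT was 1.31 for PKLR (95% interval -0.07 to 2.69, adjusted p = 1.0) and 0.50 for LDHA (-1.02 to 2.02), and between -0.21 and 0.25 for the other genes. No difference passed the test, and the intervals are wide enough to hold a 2-fold difference for each of the 10 genes. Under palmitate PKLR stood 3.75-fold above WT on the scale of FPKM + 1, a log2 ratio of 1.91 (0.93 to 2.88, adjusted p = 1.0). It was the 1 of 10 genes past 2-fold, against a background of 1.35%.

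**Figure D4:**
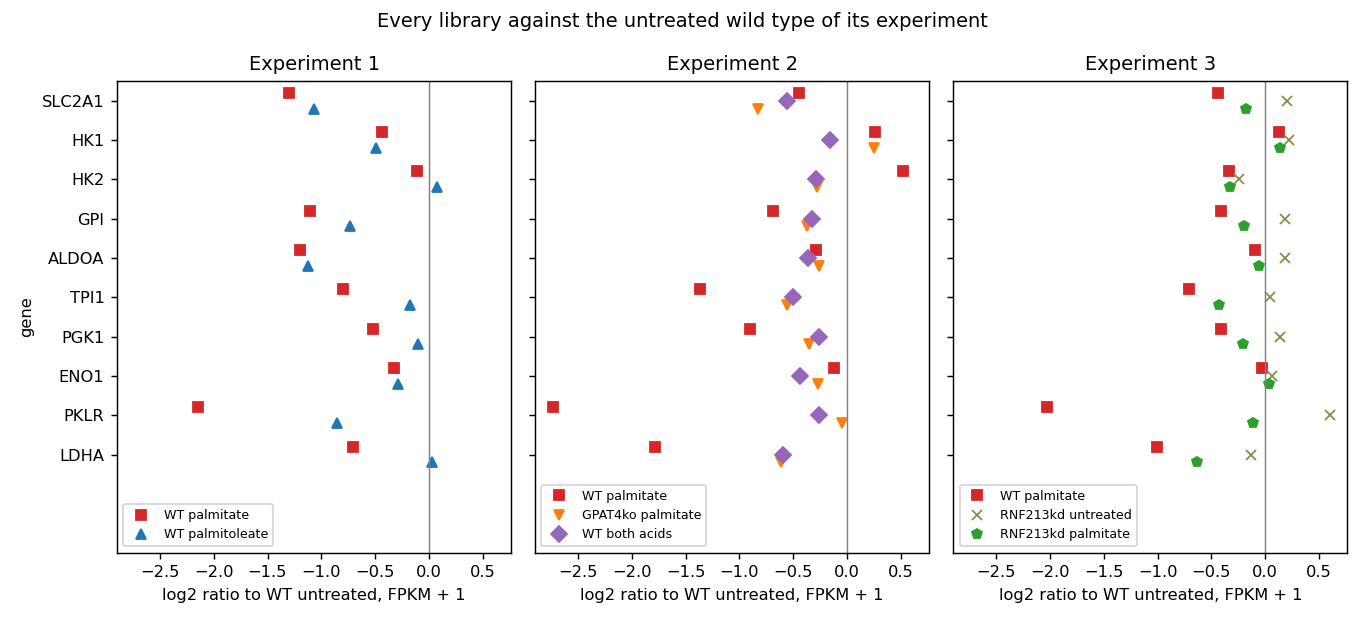
Log2 ratio of every other library to the untreated WT library of its experiment (FPKM + 1) for the 10 genes, 1 panel per experiment and 1 symbol per condition. WT palmitate (red squares) lies farthest left for PKLR in each panel, while the GPAT4ko palmitate and both-acid libraries lie at -0.05 and -0.26.

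Over the 11 libraries, centred within experiments, TPI1, PGK1 and LDHA varied together, with Pearson r of 0.97 to 0.99, and PKLR had r of 0.90 to 0.93 with each. HK2 had r between -0.41 and 0.44 with the other 9 genes, and ENO1 had r of 0.20 with PKLR and with LDHA. These values describe libraries that share controls and carry the palmitate contrast itself. Among 8255 genes that averaged 5 FPKM or more, those most like PKLR were FAM178B (r = 0.99), TEX2 (0.984), TRIM14 and DCXR (0.979 each) and LOC388588 (0.978). Those most like LDHA were SEPHS1 (0.996), CPSF6, MRTO4 and HNRNPAB (0.995 each) and DDX55 (0.994), and those most like HK2 were ZDHHC6 (0.904), FAHD1 (0.889), ZNF600 (0.881) and MARK3 (0.88).

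The other glycolytic enzymes gave 0 calls among 14 tested of 23 listed in WT palmitate (limma, with a median log2 ratio of -0.49), and 8 of them were lower in every experiment. Of all tested genes, 3.84% were called lower and 6.59% higher, and 29.6% were lower in every experiment. At an unadjusted p under 0.05, 6 of the 14 were lower and 0 higher, against 17.2% and 15.4% of tested genes. The calls were 2 lower of 13 tested with the GC trend removed (ADPGK and PGAM1), where 12.5% of tested genes were called lower. They were 3 lower without small RNA and SNAR genes (PGAM1, GAPDH and LDHB), where 11.1% were. Nearest to the threshold were PGAM1, which shifts the phosphate of 3-phosphoglycerate, at -0.82 (adjusted p = 0.054), and GAPDH, at -0.64 (adjusted p = 0.073). GAPDH, the most abundant gene of the pathway, stood at 2720, 3300 and 1710 FPKM untreated and at 1530, 1970 and 1340 FPKM with palmitate. The phosphofructokinase subunits PFKL, PFKM and PFKP had ratios of -0.48, -0.51 and -0.11, and PFKL was at -1.71 in experiment 1 and at 0.03 and 0.24 in the others. Of the other hexose transporters 5 of 12 were tested and limma called 0. At an unadjusted p under 0.05, 2 were higher and 1 lower, against 15.4% and 17.2% of tested genes. SLC2A3 was called higher with the GC trend removed (adjusted p = 0.0207) and without small RNA and SNAR genes (adjusted p = 0.0238). Those fits called 15.3% and 11.3% of tested genes higher. Among the 3 tested enzymes that set fructose 2,6-bisphosphate, PFKFB4 was lower at -1.28 (adjusted p = 0.0283), from 8.26, 5.57 and 4.60 FPKM to 2.54, 1.30 and 1.90 FPKM. PFKFB4 was the only call among these 3, against 3.84% of tested genes called lower.

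Of 12 tested genes of pyruvate and lactate fate, 1 was called higher and 0 lower, against 6.59% and 3.84% of tested genes. The higher one was PDP1, a phosphatase that activates pyruvate dehydrogenase, at 0.75 (limma adjusted p = 0.0443). With the GC trend removed, or without small RNA and SNAR genes, 1 was called lower, DLAT. Those fits called 12.5% and 11.1% of tested genes lower. The pentose phosphate pathway (7 tested), gluconeogenesis and glycerol phosphate (5 tested) and glycogen metabolism (12 tested) gave 0 calls by limma, with 1, 1 and 4 genes at an unadjusted p under 0.05. Of all tested genes, 15.4% were higher and 17.2% lower at that unadjusted p. With the GC trend removed the calls were 1 higher and 1 lower, 1 higher and 0 lower, and 2 higher and 3 lower, in the order of the lists above. That fit called 15.3% of tested genes higher and 12.5% lower. Without small RNA and SNAR genes, 1 pentose phosphate gene was called lower, RPIA (limma adjusted p = 0.0318). In glycogen metabolism 1 was then called higher, PYGB, a glycogen phosphorylase (0.00603), and 1 lower, GYS1 (0.0259). The fit without small RNA and SNAR genes called 11.3% of tested genes higher and 11.1% lower. With neither step the lowest adjusted p was that of PYGB, at 1.48 (0.0588).

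Of 12 genes that regulate glycolytic gene expression, 3 were called higher and 2 lower in WT palmitate, against 6.59% and 3.84% of tested genes. TXNIP and ARRDC4, arrestin-domain proteins that restrain glucose uptake, were higher at 0.96 (adjusted p = 0.0434) and 1.91 (adjusted p = 0.0159). EPAS1, which encodes HIF-2 alpha, was higher at 2.26 (adjusted p = 0.0227), while HIF1A had a ratio of 0.44 (adjusted p = 0.19) and MYC one of 0.01 (adjusted p = 0.986). The erythroid factors KLF1 and GATA1 were lower at -2.83 and -1.46 (adjusted p = 0.0295 each). With both acids KLF1 and GATA1 stood at 70.1 and 147 FPKM, against 3.54 and 40.8 FPKM with palmitate alone.

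Of 13 tested hypoxia-induced genes outside glycolysis, 3 were called higher in WT palmitate and 0 lower, against 6.59% and 3.84% of tested genes. Their median log2 ratio was 0.65. The calls were 6 higher and 1 lower with the GC trend removed, and 5 higher and 1 lower without small RNA and SNAR genes, and the lower one was EGLN3, a prolyl hydroxylase of HIF. Over all tested genes, those fits called 15.3% and 11.3% higher, and 12.5% and 11.1% lower. VEGFA was higher at 2.14 (adjusted p = 0.0163) and P4HA2, a collagen prolyl hydroxylase subunit, at 1.68 (adjusted p = 0.0383). ANKRD37 was higher at 0.74 (adjusted p = 0.0495), a call that GC removal ended (limma 0.0541). The largest ratio of the list was that of NDRG1, at 2.95, which limma did not call (adjusted p = 0.0536). Its ratios were 1.27, 5.22 and 2.35 in experiments 1, 2 and 3. BHLHE40, at 1.54, was not called either (adjusted p = 0.0716). GC removal brought calls for NDRG1 (limma 0.0353) and BHLHE40 (0.0421). Of the list, 4 genes had ratios below 0, EGLN3 at -0.86 (adjusted p = 0.0615), EGLN1 at -0.50, BNIP3 at -0.31 and MXI1 at -0.30.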

How the data were processed

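Stranded poly(A) libraries were mapped to hg19 by TopHat2, corrected for multi-mapped reads and quantified with Cuffdiff, per the submitters' processing notes, with versions not given in the sources used here. The authors deposited FPKM values, normalised by Cuffdiff within 1 table per experiment. The tables also hold 2 libraries with no label, which were not used.

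Values were taken as log2(FPKM + 1), so folds of genes at low levels are understated. Genes averaging 1 FPKM or more were tested with limma 3.58.1 (R 4.3.3, intensity trend, two-sided, Benjamini-Hochberg) on the 3 ratios of palmitate to untreated WT. Experiments pair the libraries: across genes, deviations of the untreated and palmitate libraries correlated at 0.458, 0.634 and 0.696 within an experiment and at -0.526 to 0.0106 between experiments. Each deviation is from the gene's mean over the 3 libraries of a condition. Positive values within experiments therefore make those between experiments negative on average. A lone library's ratio borrowed the spread of the WT ratios (2 residual and 3.86 prior degrees of freedom), and a difference of responses had the variance of 2 ratios. The replicates are experiments of pooled RNA, so p-values measure the spread between experiments. GC content came from the longest GENCODE transcript (87.0% of tested genes matched), with a lowess span of 0.3, and promoters came from RefSeq. Named genes are the members, all tested glycolytic enzymes, up to 4 genes per other list with the largest ratio, and the 5 most like PKLR, HK2 and LDHA, of which 1 is not reported here; further genes were named after their values were seen. The members and lists were chosen with earlier results of these data known.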

Additional observations from a re-analysis of the deposited data

How the results depend on the processing

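Of the 10 genes, 3 were called lower in WT palmitate with a pseudocount of 0.1, a mean of at least 5 FPKM, median-centred ratios or no intensity trend. The count was 5 with the GC trend removed, 4 without small RNA and SNAR genes, 0 with no filter on low values (limma called 0 of 18968 genes, with 4155 at an unadjusted p under 0.05), and 8 when lower in all 3 experiments was the criterion. Leaving out an experiment gave 0 to 1. With no replicate block, which ignores the pairing by experiment, it was 0, and 1 with the GC trend removed too. Over all genes, 730 were called higher and 425 lower, against 1475 and 1205 with the GC trend removed, 1234 and 1207 without small RNA and SNAR genes, 964 and 636 centred and 258 and 51 with no replicate block. Leaving out experiment 1 or 3 gave 0 calls (limma, 4474 and 2330 genes at an unadjusted p under 0.05). Leaving out experiment 2 gave 599 higher and 291 lower, in a fit whose smallest limma adjusted p was 2.78e-138. The cause was not tested. After GC removal 0 of the 10 genes were past 2-fold for palmitoleate against untreated. The HK2 share difference ranged from -0.634 to 1.44 percentage points (-0.342 without experiment 2). The direction of these genes, none of them called, turned under some alternatives; ranges are over leaving out an experiment: HK1 -0.15 to 0.19 (0.01 centred, 0.11 with GC removed, with or without the block), HK2 -0.22 to 0.20, PFKL -0.84 to 0.13, ALDOC -0.53 to 0.01, G6PC3 -0.71 to 0.10, PC -0.48 to 0.08, PFKP -0.31 to 0.18 (0.05 with GC removed), PGAM4 -0.16 to 0.06 (0.13 with a pseudocount of 0.1, 0.01 with GC removed), PKM2 -0.22 to 0.52 (-0.02 without experiment 3) and PFKFB2 -0.30 to 0.11 (0.02 without experiment 3). Over 55 named genes, 540 of 649 alternative values kept their direction and side of the threshold. Read depth is unknown, and conditions other than untreated and palmitate WT rest on 1 pooled library each.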
